A study of Mus musculus with 8 samples.

Results

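The 10 genes described here encode the enzymes of the pentose phosphate pathway and 3 enzymes that supply NADPH beside it. They were taken by symbol: G6pdx, Pgls and Pgd of the oxidative branch, Rpia, Rpe, Tkt and Taldo1 of the non-oxidative branch, and Me1, Idh1 and Nadk. Each stood on 1 row among the 55492 genes in the tables, and all 10 passed the filter on low counts, as did 13531 genes in all. The cells were YUMM5.2, a single mouse melanoma line that the labels give as strain C57B/6J. Cultures were given the solvent DMSO (4 libraries) or 4-OI (4 libraries) and harvested after 20 h. The labels call 4-OI a permeable itaconate, and in this field the name stands for 4-octyl itaconate. The sources used here do not name its dose. The labels give both groups the same line and strain, and no library had itaconate itself.

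The oxidative branch of the pathway turns glucose-6-phosphate into ribulose phosphate and reduces NADP to NADPH on the way. The non-oxidative branch interconverts ribose phosphate, needed for nucleotides, with the sugar phosphates of glycolysis, so carbon can run in either direction. NADPH is the electron donor of glutathione reductase and thioredoxin reductase, of quinone and carbonyl reductases, and of lipid synthesis. Cytosolic malic enzyme (Me1) and isocitrate dehydrogenase (Idh1) also make NADPH, and NAD kinase (Nadk) makes the NADP that all of them use. Several of these genes are textbook targets of the transcription factor NRF2.

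Transcripts of 6 of the 10 genes rose with 4-OI: Taldo1 by 2.77-fold, Pgd by 2.13-fold, G6pdx by 1.97-fold, Idh1 by 1.53-fold, Me1 by 1.45-fold and Tkt by 1.41-fold. The other steps did not follow: Pgls, Rpe and Nadk were not called, and Rpia was called lower by a small amount. A gene was called when edgeR's quasi-likelihood test gave a Benjamini-Hochberg adjusted p under 0.05 over all genes tested, and by that rule the calls took in 19.3% of all tested genes as higher and 19.6% as lower. Over the 10 genes the median log2 fold change was 0.51, against 0.00046 for all tested genes. In 6 of the 10 the groups were apart, with all 4-OI libraries above, a pattern found in 17.4% of all tested genes. In 0 of the 10 were all 4-OI libraries below, against 18.0% of all tested genes. Taldo1 ranked 55th, Pgd 109th and G6pdx 141st by log2 fold change among the 13531 genes, Idh1 344th, Me1 437th and Tkt 514th.

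**Figure D1:**
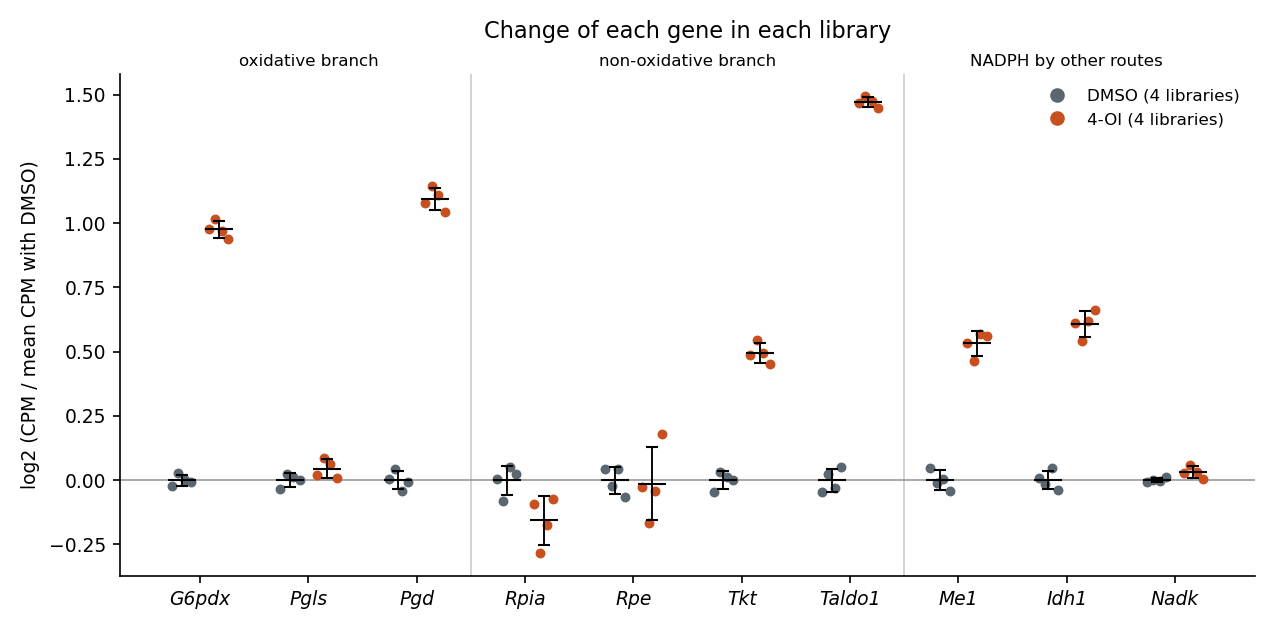
Change of each gene in each library, as the log2 of its CPM (counts scaled to library size) over the mean CPM of the DMSO libraries; points are libraries, and black marks are the mean and SD of 4 libraries. The 4-OI points of G6pdx, Pgd, Tkt, Taldo1, Me1 and Idh1 lie clear of the DMSO points, while those of Pgls, Rpia, Rpe and Nadk reach into them.

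Libraries held 22962963 to 31361677 counts, and single counts of the 10 genes ran from 411 to 16407, so none was near the limit of detection. Within a group, chi-square per degree of freedom between any pair was 1.9 to 4.79, where sampling noise alone gives about 1, and each library counted as 1 replicate. The labels speak of separate experiments without naming cultures, so p-values cover only the spread among these libraries, possibly a technical one. The defining markers of the melanocyte lineage were nearly absent: of 7 only Mitf passed the filter, and Sox10, Pmel, Mlana, Tyr, Tyrp1 and Dct had at most 8 counts in any library; the 7 together came to 6.32 to 7.46 CPM with DMSO and 9.67 to 10.8 CPM with 4-OI. Leukocyte, endothelial and keratinocyte markers (12 genes) were low, with Cd68 alone past the filter, at most 2.47 CPM summed in any of those lists. The 5 mesenchymal markers summed to 2601 to 2765 CPM with DMSO and 1812 to 1897 CPM with 4-OI, with Col1a1, Col1a2, Pdgfrb and Dcn lower. Pdgfra was called higher by a log2 fold change of only 0.095, with groups that overlapped, and kept that call in 13 of 19 alternatives. The part of these shifts in the results below was not tested, and in bulk RNA a change in the share of cells and a change per cell cannot be told apart.

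Promoter windows from RefSeq (build GRCm38.p6, 250 bases before to 50 after a transcript start) were present for all 10 genes, 14 windows in all. They were searched on both strands for the core of the antioxidant response element, TGACNNNGC, the letters that NRF2 with a small MAF partner binds. G6pdx, Me1 and Pgd each held 1 match, and the windows of the other 7 genes held none. Of all 32851 windows of this length in the table, 12.4% held the core, and 3781 of 27025 genes had it in at least 1 window. The stretches of 30 bases around the 3 matches are shown because these 3 genes are among the 6 that rose; they read 5′ to 3′ on the strand of the gene, with the matched bases in capitals.
G6pdx: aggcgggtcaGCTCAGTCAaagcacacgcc
Me1: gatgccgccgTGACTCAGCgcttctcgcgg
Pgd: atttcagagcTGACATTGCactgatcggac
The G6pdx match (stretch chrX:74428918-74428947, minus strand) lies in the orientation opposite to the gene, starting 57 bases before the RefSeq start and inside an exon annotated as UTR in GENCODE M21. The Me1 match (stretch chr9:86695901-86695930, minus strand) starts 6 bases before the start, also within an annotated UTR exon, and its letters hold the AP-1 motif TGANTCA as well, which 7.81% of all windows hold. The Pgd match (stretch chr4:149166060-149166089, minus strand) belongs to a start inside the gene and falls in a coding exon, and the window of the first Pgd start had none. A match of letters is a description of the window, not a site shown to be bound.

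For the genes with the largest rises, Taldo1 and Pgd, the upstream bases of the window outside every annotated exon are printed below. Neither stretch holds the core, which says only that these letters are not in it. The Taldo1 stretch is chr7:141391910-141392159 on the plus strand and the Pgd stretch is chr4:149166772-149166955 on the minus strand.
Taldo1: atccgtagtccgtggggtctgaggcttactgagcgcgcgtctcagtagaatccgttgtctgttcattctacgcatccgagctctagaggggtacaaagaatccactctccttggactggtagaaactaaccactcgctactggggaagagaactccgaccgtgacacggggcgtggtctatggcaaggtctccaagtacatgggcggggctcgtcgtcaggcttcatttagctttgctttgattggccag
Pgd: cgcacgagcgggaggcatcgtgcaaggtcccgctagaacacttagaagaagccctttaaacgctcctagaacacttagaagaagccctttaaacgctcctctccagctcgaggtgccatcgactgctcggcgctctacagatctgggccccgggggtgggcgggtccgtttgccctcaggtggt
The E-box CACGTG, bound by MYC and related factors, was found in 1 window, at an inner start of Nadk, against 7.15% of all windows.

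G6pdx encodes glucose-6-phosphate dehydrogenase, the entry and rate-limiting step of the oxidative branch (GRCm38 chromosome X, 74409483 to 74429194, minus strand). In CPM its level was 175.5, 181.7, 178.2 and 177.5 in DMSO replicates 1 to 4 and 350.9, 360.4, 348.9 and 341.6 in 4-OI replicates 1 to 4. The lowest 4-OI library was thus far above the highest DMSO library, and the spread within a group was small beside the gap (178 ± 2.61 against 350.4 ± 7.72 CPM, SD, n = 4). G6pdx rose by 0.98 on the log2 scale (standard error 0.02), or 1.97-fold with a 95% interval of 1.90 to 2.04 (edgeR adjusted p = 3.51e-17). Exons of G6pdx overlap those of Ikbkg on the opposite strand, which encodes the regulatory subunit of the IKK complex. Ikbkg was also higher, from 47.7 ± 0.991 to 72.4 ± 3.81 CPM (log2 fold change 0.60). The sources used here do not say whether counting used strand, so reads of the shared exons cannot be told apart.

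Pgls encodes the lactonase that follows (chromosome 8, 71592176 to 71601092). It had 68.1, 71.0, 70.3 and 69.7 CPM with DMSO and 70.8, 74.1, 72.8 and 70.1 CPM with 4-OI. The groups overlapped, and the log2 fold change of 0.04 had a 95% interval of -0.02 to 0.11 (edgeR adjusted p = 0.256). In terms of level the interval runs from 1.22% lower to 7.72% higher, so a change of the size seen in its neighbours lies outside it.

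Pgd encodes phosphogluconate dehydrogenase, the enzyme that makes NADPH at the end of the oxidative branch and releases CO2 (chromosome 4, 149149991 to 149166771, minus strand). Its level went from 254.1, 260.8, 245.8 and 252.2 CPM with DMSO to 534.7, 559.1, 545.7 and 521.7 CPM with 4-OI. All 4-OI libraries were high and none came near the DMSO range. Pgd rose by 1.09 on the log2 scale (standard error 0.03), or 2.13-fold with a 95% interval of 2.05 to 2.22 (edgeR adjusted p = 2.68e-17). Pgd and Pgls thus stood apart within 1 branch. The ratio of their counts in the same library was 3.63 with DMSO and 7.51 with 4-OI (geometric means), and its log2 rose by 1.05, with SDs of 0.04 and 0.01 between libraries (n = 4). A two-sided exact permutation test over the 8 libraries gave p = 0.0286, the smallest that 4 against 4 allow, and 0.0286 after Benjamini-Hochberg adjustment over the 6 pairs of genes compared in this way.

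In the non-oxidative branch the transfer enzymes rose and the enzymes that act on ribulose phosphate did not. Taldo1 encodes transaldolase, which moves a dihydroxyacetone unit between sugar phosphates (chromosome 7, 141392199 to 141402968). It had 83.0, 87.3, 84.1 and 88.8 CPM with DMSO and 237.1, 241.4, 238.8 and 234.1 CPM with 4-OI. The 4-OI libraries differed from each other by less than the DMSO libraries did relative to their mean, with coefficients of variation of 1.3% and 3.15%. The 2.77-fold rise had a 95% interval of 2.67 to 2.88 (log2 fold change 1.47, standard error 0.03, edgeR adjusted p = 1.70e-19).

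Tkt encodes transketolase, a thiamine-dependent enzyme that moves a glycolaldehyde unit and works in series with transaldolase (chromosome 14, 30548359 to 30574720). Its level was 266.3, 281.7, 277.9 and 275.6 CPM with DMSO and 385.8, 402.2, 387.7 and 376.5 CPM with 4-OI. The groups did not overlap, and the 1.41-fold rise had a 95% interval of 1.36 to 1.46 (log2 fold change 0.49, standard error 0.03, edgeR adjusted p = 6.79e-12). Taldo1 rose by more than Tkt: the log2 ratio of their counts went from -1.68 ± 0.04 to -0.71 ± 0.02 (SD, n = 4), a difference of 0.98 (exact permutation p = 0.0286, the smallest possible, adjusted over 6 pairs 0.0286). On the TPM scale, which takes transcript length into account, Taldo1 stood at 0.69 times Tkt with DMSO and at 1.35 times Tkt with 4-OI.

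Rpia encodes ribose phosphate isomerase, which makes ribose phosphate from ribulose phosphate (chromosome 6, 70765720 to 70792232, minus strand). It was the rarest of the 10, with 18.1, 17.1, 18.7 and 18.4 CPM with DMSO and 16.9, 14.8, 16.0 and 17.2 CPM with 4-OI. The highest 4-OI library lay just above the lowest DMSO library, so the groups overlapped. Rpia fell by 0.15 on the log2 scale (95% interval -0.27 to -0.04, edgeR adjusted p = 0.0323). The call was lost with scaling by library totals, without the low-count filter, with the DESeq2 Wald test and with limma on TPM or FPKM. It was also lost when any one of DMSO replicates 1, 3 and 4 or of 4-OI replicates 2 and 3 was left out, and adjusted p ranged from 0.0121 to 0.143 over these alternatives and those that kept it.

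Rpe encodes ribulose phosphate epimerase, which makes the xylulose phosphate that transketolase uses (chromosome 1, 66700831 to 66719805). It had 51.0, 48.8, 51.1 and 47.4 CPM with DMSO and 48.7, 44.2, 48.2 and 56.1 CPM with 4-OI. The 4-OI libraries enclosed the DMSO range, and replicates 2 and 4 of the 4-OI group were its lowest and highest values. The log2 fold change was -0.01 (95% interval -0.12 to 0.11, edgeR adjusted p = 0.95). Rpe shares exon sequence with Kansl1l on the opposite strand, a gene that was not called (log2 fold change 0.02, edgeR adjusted p = 0.759). The log2 ratio of Rpe to Rpia counts was higher with 4-OI by 0.14 (exact permutation p = 0.0286, the smallest possible, adjusted over 6 pairs 0.0286).

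Of the other routes to NADPH, Me1 encodes cytosolic malic enzyme, which turns malate into pyruvate (chromosome 9, 86581371 to 86695953, minus strand). Its level was 126.6, 121.6, 122.8 and 118.8 CPM with DMSO and 177.3, 168.8, 181.6 and 180.8 CPM with 4-OI. All 4-OI libraries were above all DMSO libraries, and the 1.45-fold rise had a 95% interval of 1.39 to 1.51 (log2 fold change 0.53, standard error 0.03, edgeR adjusted p = 8.02e-12). Idh1 encodes the isocitrate dehydrogenase of cytosol and peroxisomes (chromosome 1, 65158616 to 65186500, minus strand). It went from 57.9, 57.0, 59.5 and 56.1 CPM to 87.9, 83.8, 88.5 and 91.2 CPM, also without overlap. Its 1.53-fold rise had a 95% interval of 1.46 to 1.60 (log2 fold change 0.61, standard error 0.03, edgeR adjusted p = 7.92e-12).

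Nadk encodes the cytosolic NAD kinase (chromosome 4, 155562378 to 155591001). It had 159.3, 160.4, 159.8 and 161.6 CPM with DMSO and 163.4, 167, 163.6 and 160.6 CPM with 4-OI. Replicate 4 of the 4-OI group fell inside the DMSO range. The log2 fold change of 0.03 had a 95% interval of -0.02 to 0.08 (edgeR adjusted p = 0.330), or 1.25% lower to 5.54% higher in level. Its coefficient of variation between DMSO libraries was 0.634% in CPM and 4.24% in TPM.

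The cytosolic enzymes were set beside their mitochondrial counterparts. Me2, the mitochondrial malic enzyme, which works mainly with NAD, was lower, from 124 ± 3.26 to 110.0 ± 2.91 CPM (SD, n = 4; log2 fold change -0.18, edgeR adjusted p = 3.34e-05). The log2 ratio of Me1 to Me2 counts rose by 0.71, from 0.98 to 1.61 as a plain ratio. Idh2, the mitochondrial isocitrate dehydrogenase, had 161 ± 2.46 and 158 ± 3.00 CPM (log2 fold change -0.02, edgeR adjusted p = 0.459), and the log2 ratio of Idh1 to Idh2 rose by 0.63. The kinases went the other way: Nadk2, the mitochondrial NAD kinase, was higher, from 63.3 ± 1.97 to 76.6 ± 2.38 CPM (log2 fold change 0.28, edgeR adjusted p = 1.10e-06), and the log2 ratio of Nadk to Nadk2 dropped by 0.24. For each of the 3 ratios the groups did not overlap, and the exact permutation p was 0.0286, the smallest possible, and 0.0286 adjusted over the 6 pairs. With TPM in place of counts, the ratio of Nadk to Nadk2 overlapped between the groups and its adjusted p was 0.0571.

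**Figure D2:**
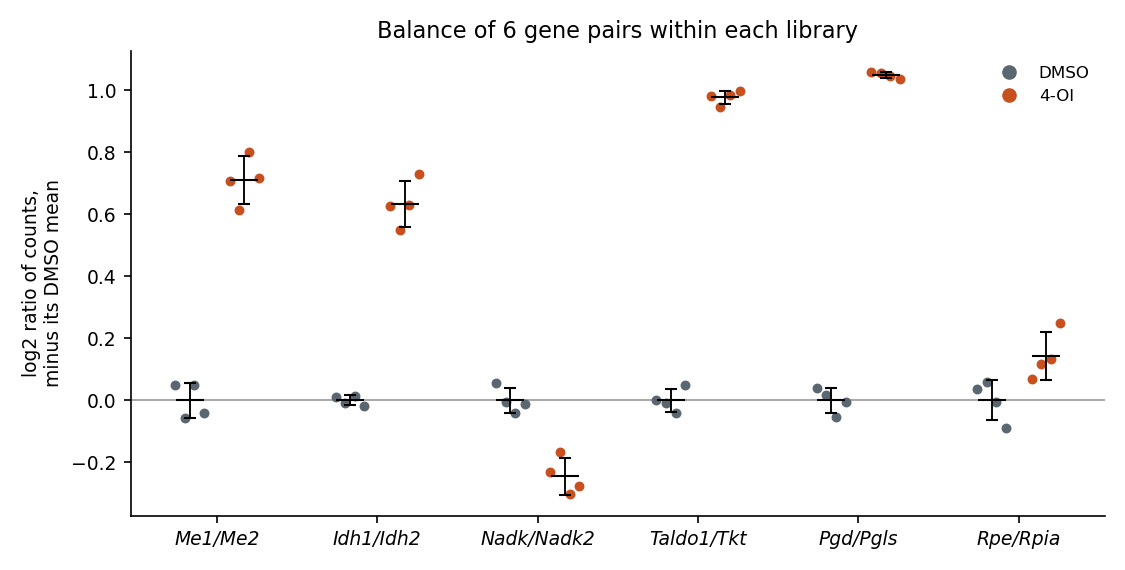
Log2 ratio of the counts of 2 genes in the same library, minus its mean over the DMSO libraries, for the 6 pairs; points are libraries, and black marks are the mean and SD of 4 libraries. The ratio is higher with 4-OI for 5 pairs, by 1.05 for Pgd to Pgls at the top and 0.14 for Rpe to Rpia at the bottom, and lower for Nadk to Nadk2.

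**Figure D3:**
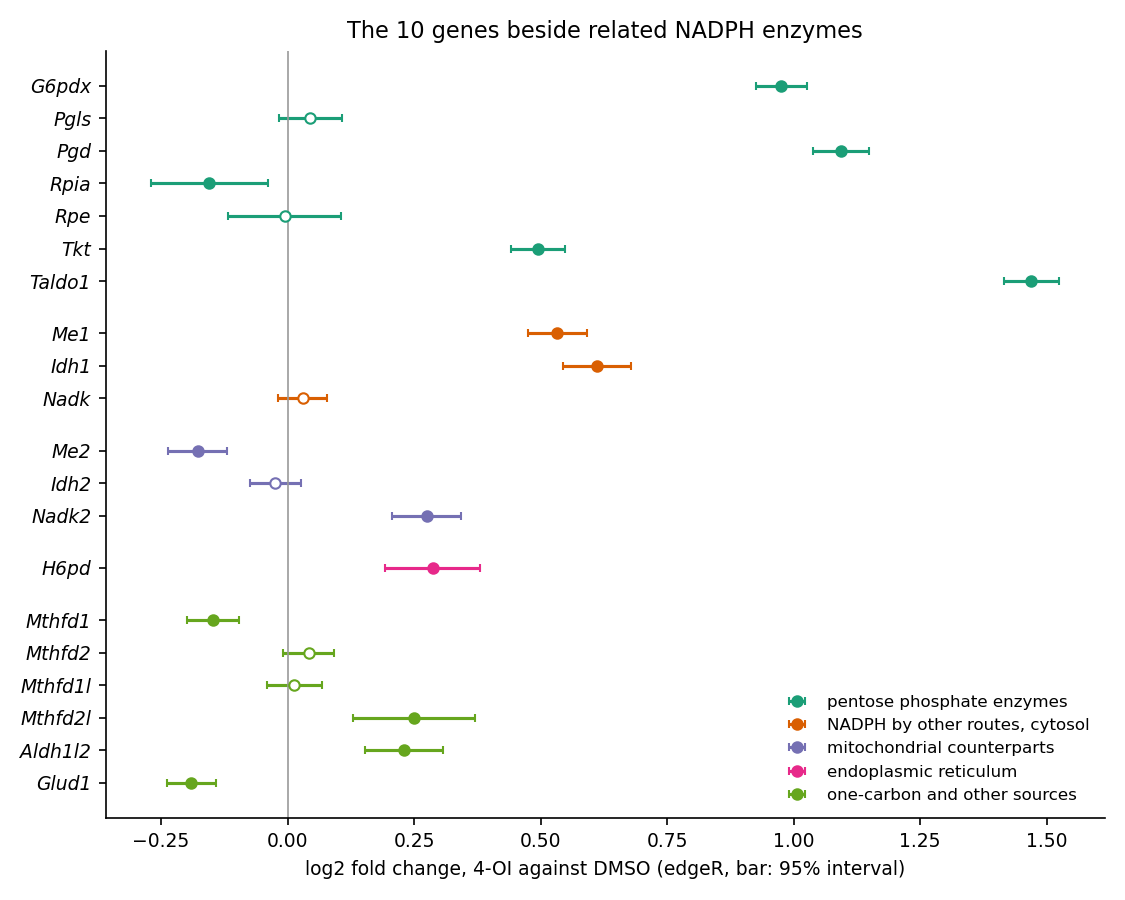
Log2 fold change of the 10 genes and of related NADPH enzymes, 4-OI against DMSO, with 95% intervals from edgeR; filled points are called at an adjusted p under 0.05. Taldo1, Pgd and G6pdx lie near or above 1, and the enzymes drawn beside the 10 lie between -0.19 (Glud1) and 0.29 (H6pd).

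Levels of different genes were compared on the TPM scale. With DMSO the order from high to low was Pgd (212 ± 4.87 TPM, SD, n = 4), Tkt (183 ± 5.79), Pgls (152 ± 3.09), Taldo1 (127 ± 2.86), G6pdx (106 ± 1.12), Nadk (102 ± 4.32), Me1 (67.2 ± 3.34), Idh1 (41.7 ± 0.655), Rpe (30.3 ± 0.973) and Rpia (16.2 ± 0.676). G6pdx and Nadk were the only neighbours in this order whose ranges over the libraries overlapped. With 4-OI, Pgd stayed first at 454 ± 14.1 TPM, Taldo1 moved from the fourth place to the second at 353 ± 7.07 and G6pdx passed Pgls, at 209 ± 5.61 against 157 ± 4.60. No neighbours overlapped in that order, and Rpe and Rpia remained last at 30.2 ± 2.62 and 14.6 ± 0.854 TPM. In sum the 7 enzymes of the pathway made up 827 ± 12.6 TPM with DMSO and 1480 ± 34.9 TPM with 4-OI (SD, n = 4). The oxidative branch went from 470.4 ± 8.05 to 820 ± 23.6 TPM and the non-oxidative branch from 356 ± 6.20 to 661 ± 11.7 TPM. With 4-OI these sums were 1.74 and 1.85 times as high as with DMSO and are given as a description.

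**Figure D4:**
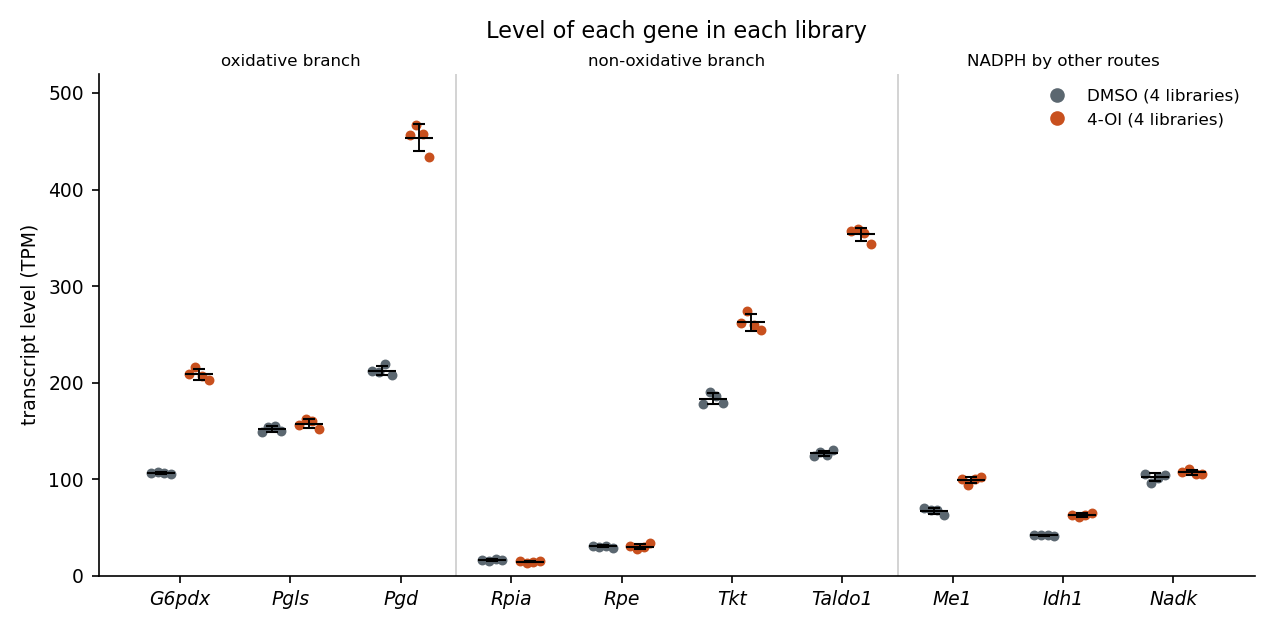
Level of each gene in each library in TPM, the authors' length-scaled values, on a linear axis from 0; points are libraries, and black marks are the mean and SD of 4 libraries. Pgd is highest in both groups, Taldo1 goes from 127 to 353 TPM, and Rpia and Rpe stay at 30.3 TPM or less on average.

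Around the 10 genes, 6 lists from general knowledge were counted, to be read beside the 19.3% of all tested genes called higher and the 19.6% called lower. Among other genes of pentose metabolism 9 of 12 could be tested, of which 2 were higher, 2 lower and 5 not called (22.2% in each direction, median log2 fold change -0.04). H6pd, which carries out the first 2 oxidative steps inside the endoplasmic reticulum, went from 49.6 ± 2.96 to 60.5 ± 3.40 CPM (SD, n = 4; log2 fold change 0.29), and Pgm2, a phosphopentomutase, had a log2 fold change of 0.14. Pgp, a phosphatase that removes side products of sugar metabolism, fell by 0.29 and Prps1, which activates ribose phosphate for nucleotide synthesis, fell by 0.11 on the log2 scale, a call that 7 of 19 alternatives ended. Prps2, Pgm1, Dera, Shpk and Rbks were not called. The transketolase-like gene Tktl1 had 0 to 5 counts per library (exact permutation p = 0.571), and Tktl2 and G6pd2 had a count of 0 in all 8 libraries, which allows up to 3 counts or 0.0957 to 0.131 CPM per library and covers counting error only.

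Other genes linked to NADPH supply, mostly mitochondrial or of folate metabolism, gave 3 higher, 3 lower and 5 not called among 11 tested (27.3% in each direction). Their median log2 fold change was -0.02, and not all of these enzymes make NADPH themselves. Nadk2 (0.28), Mthfd2l (0.25) and Aldh1l2 (0.23), the last 2 enzymes of mitochondrial folate metabolism, were higher by these log2 fold changes. Mthfd2l kept its call in 15 of 19 alternatives and its groups overlapped in TPM, while Nadk2 and Aldh1l2 kept theirs in all 19. Glud1, glutamate dehydrogenase, fell by 0.19, Me2 by 0.18 and Mthfd1, the cytosolic folate enzyme, by 0.15 on the log2 scale. Mthfd2, Mthfd1l, Idh2, Me3 and Nnt (split over 2 rows of the table) were not called, and Aldh1l1 had 1 to 7 counts per library.

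Among 24 enzymes that spend NADPH, 14 were higher (58.3%), 2 lower (8.33%) and 8 not called (median log2 fold change 0.14). Of the 14, Por, cytochrome P450 reductase, and Akr1a1, an aldehyde reductase, were close to the threshold (log2 fold change 0.06 each, edgeR adjusted p = 0.0496 and 0.0404). Por was called in 7 of 19 alternatives and Akr1a1 in 8, and over these the list had 12 to 15 genes higher. The rises were led by the quinone reductase Nqo1 (log2 fold change 2.73), the biliverdin reductase Blvrb (2.54), the carbonyl reductase Cbr3 (1.72), the thioredoxin reductase Txnrd1 (1.45), Ptgr1 (1.29) and the glutathione reductase Gsr (1.14). Gsr went from 134 ± 5.53 to 293 ± 9.80 CPM (SD, n = 4) and Txnrd1 from 288 ± 6.63 to 790.3 ± 15.0 CPM. The mitochondrial thioredoxin reductase Txnrd2 was not called (log2 fold change -0.14, edgeR adjusted p = 0.074). Fasn, fatty acid synthase, was not called (log2 fold change -0.03, edgeR adjusted p = 0.417), and Sqle, squalene epoxidase, fell by 0.14 on the log2 scale.

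In glycolysis, where the pathway takes and returns its sugars, 7 of 14 tested genes were lower (50%, against 19.6% of all tested genes), 2 higher (14.3%, against 19.3%) and 5 not called (median log2 fold change -0.12). The phosphofructokinase Pfkl fell by 0.46, the hexokinase Hk2 by 0.44, the triosephosphate isomerase Tpi1 by 0.32, Pfkp by 0.31 and the aldolase Aldoa by 0.14 on the log2 scale. Tigar, a phosphatase known to divert hexose into the pentose phosphate pathway, was higher at 15.0 ± 1.37 and 18.4 ± 0.898 CPM (SD, n = 4; log2 fold change 0.29, edgeR adjusted p = 0.000951), as was Pfkm (0.13). Genes of nucleotide and NAD synthesis, listed around the use of ribose phosphate, gave 2 higher (16.7%), 4 lower (33.3%) and 6 not called of 12. Their median log2 fold change was -0.05, and not all of these enzymes use ribose phosphate themselves. Paics (log2 fold change 0.31) and Atic (0.08), both of purine synthesis, were the higher ones. Umps, of pyrimidine synthesis (-0.16), Nampt, of NAD synthesis (-0.13), and Gart and Pfas, of purine synthesis (-0.10 each), were the lower ones. Gart and Nampt had groups that overlapped and kept their calls in 12 and 15 of 19 alternatives. Umps and Pfas kept theirs in all 19. Over the alternatives 2 to 6 genes of this list were lower.

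Of 8 genes of NADP handling and NRF2 control, 4 were higher (50%), 2 lower (25%) and 2 not called (median log2 fold change 0.17). Noct, nocturnin, which removes the extra phosphate of NADP and NADPH, fell by 0.39 on the log2 scale, from 57.2 ± 0.588 to 43.6 ± 2.34 CPM (SD, n = 4). Nudt12, a hydrolase of nicotinamide dinucleotides, was higher by 0.70. Mafg, a small MAF partner of NRF2, had a log2 fold change of 0.45 and Bach1, a repressor of the same sites, 0.38. Nfe2l2, the gene of NRF2 itself, was lower, from 160 ± 3.61 to 146 ± 2.20 CPM (SD, n = 4; log2 fold change -0.13, edgeR adjusted p = 0.000261), with no overlap between the groups. Keap1, whose protein marks NRF2 for degradation, was higher, from 72.4 ± 1.95 to 82.2 ± 3.62 CPM (SD, n = 4; log2 fold change 0.18, edgeR adjusted p = 0.000222).

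**Figure D5:**
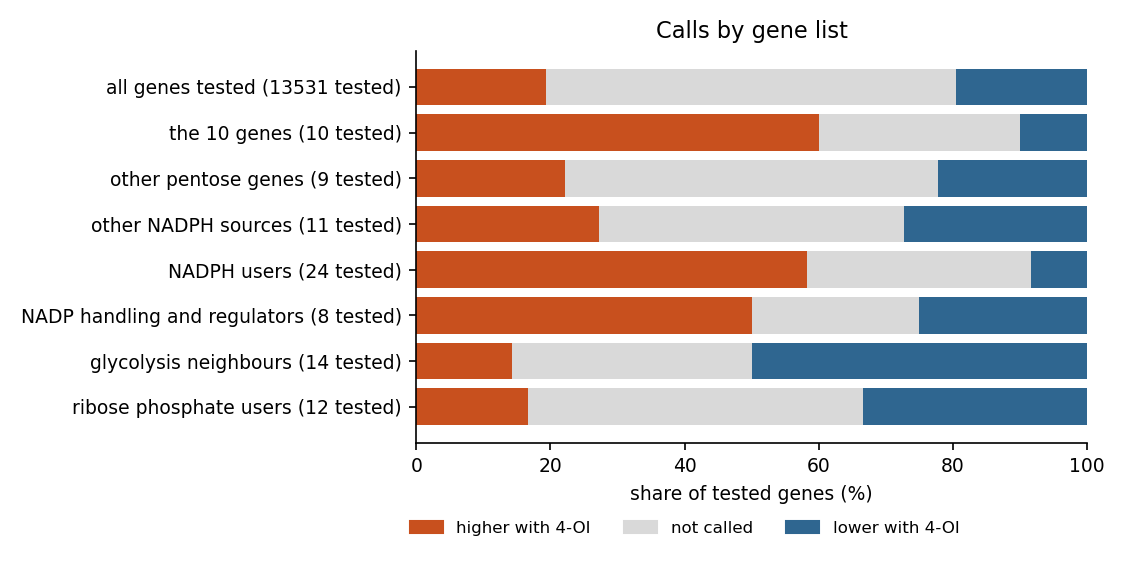
Share of tested genes called higher, not called or called lower with 4-OI, for all 13531 genes, the 10 genes and the 6 lists around them; colours are named under the axis. Calls upward make up 60% of the 10 genes and 58.3% of the NADPH-using enzymes, and 19.3% of all genes, while 50% of the glycolysis list and 19.6% of all genes are lower.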

How the data were processed

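RNA of 8 libraries was measured; per the labels' protocols these were polyA RNA made into Illumina TruSeq libraries with paired-end reads. Groups and replicate numbers came from the titles, and columns were matched by the descriptions. The build is GRCm38, and RSEM 1.3.3, STAR 2.7.8a, cutadapt 2.3, MultiQC 1.7 and FastQC 0.11.8 were among the programs, per the submitters' processing notes. The sources used here do not state the annotation release or strand setting. The authors deposited expected counts per gene (whole numbers so no rounding was needed), TPM and FPKM.

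Expected counts were tested with edgeR 4.0.16 in R 4.3.3: filterByExpr (minimum count 10), TMM, and a quasi-likelihood F test (two-sided, no covariates), adjusted over all 13531 genes. CPM are counts over total times TMM factor. Intervals (95%) come from the fitted standard error and its degrees of freedom. Ratios of counts used the two-sided exact permutation test over 70 arrangements of the libraries. Where 1 symbol stood on several rows (114 symbols), the row with the highest mean count was used. Positions came from GENCODE M21 (GRCm38). Alternatives were DESeq2 1.42.0, limma 3.58.1 with a trend on log2(value + 1), other scalings and filters, a replicate block, an offset for GC and length, and leaving out each library. The procedure was tested on simulated counts.

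The 10 genes, the lists and the tests were chosen with earlier results of these data known. The rule for named genes was all 10 genes, in each list up to 6 called genes by size of change, and genes not called or against the majority where 5 or fewer. Others, such as Por, Akr1a1, Txnrd2 and Fasn, were picked once their values had been seen. Some list members are not reported here by name.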

Additional observations from a re-analysis of the deposited data

Results flagged for a closer look

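Within the groups of 4, 1 library stood far from the other 3 (its gap to the nearest was beyond Dixon's 95% critical value) in 6 of 188 groups checked, where chance marks about 1 in 20; none of these concerned the 10 genes or their ratios. Replicate 4 of the 4-OI group was low for H6pd (55.5 CPM) and Idh2 (154 CPM) and high for Nampt (129 CPM). Replicate 1 of that group was low for Pgm2 (62.9 CPM) and replicate 2 for Sirt2 (39.5 CPM). DMSO replicate 3 was low for Aprt (126 CPM). The cause was not tested.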

How the results depend on the processing

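Over 19 alternatives, log2 fold changes of the 6 higher genes kept their direction and call: Taldo1 1.45 to 1.49, Pgd 1.07 to 1.11, G6pdx 0.96 to 0.99, Idh1 0.58 to 0.63, Me1 0.51 to 0.56 and Tkt 0.48 to 0.52. Pgls (0.03 to 0.06) and Nadk (0.02 to 0.08) were never called. Rpia kept its direction in all 19 and its call in 7. It was not called, leaving 0 genes lower, with library totals (-0.14), no low-count filter (-0.14), DESeq2 (-0.15) and limma on TPM (-0.14, also unfiltered; -0.15 with a pseudocount of 0.1) or FPKM (-0.13); leaving out 1 library gave -0.18 to -0.12, with 0 or 1 genes lower. Rpe changed sign with library totals (0.012) and no filter (0.0046), and ran from -0.0756 to 0.0422 with 1 library left out, never called. The cause was not tested. Ratios kept their direction. Nadk to Nadk2 on TPM (-0.25) lost its call. With 1 library left out only the size and direction of the ratios were compared, without a p-value.

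Over all genes, limma called fewer: 1724 higher and 1554 lower on TPM, 1722 and 1551 with a pseudocount of 0.1, 1362 and 1284 without a filter, and 1844 and 1455 on FPKM. The replicate numbers share no stated origin. Deviations of same-numbered libraries correlated at 0.465, -0.067, 0.183 and -0.035 over 10058 genes. Between libraries of different numbers the correlation ran from -0.334 to 0.27, so the value for replicate 1 was the highest of all. With the replicate block 2525 genes were higher and 2618 lower, with 6 and 1 of the 10.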

Other observations

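Nnt, the mitochondrial transhydrogenase that makes NADPH from NADH, stood on 2 rows of the table under different gene identifiers, and was looked at after its spread had been seen. The row used above had 746, 577, 1021 and 860 counts with DMSO, and the other row 443, 478, 0 and 643. In DMSO replicate 3, the library at 0 in the second row, the first row was at its highest. Summed over both rows, Nnt had 45.5 ± 1.84 CPM with DMSO and 43.5 ± 0.754 CPM with 4-OI (SD, n = 4), where the first row alone had 31.2 ± 9.28 and 29.4 ± 4.31 CPM. The split of reads between the rows thus varied more than their sum, and a level read from 1 row is uncertain.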
